A study of Mus musculus with 2 samples.

Results

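The genes described here are the sugar, amino acid and lactate transporters among leukocytes sorted from mouse tumours for surface JAML, a junctional adhesion receptor. They were chosen by symbol, as every gene of solute carrier families 1, 2, 3, 6, 7, 16, 36, 38 and 43 with a row in the count table. The rule gave 53 of 15416 genes, and no measured value was used to choose them. Of these, 51 are transporter genes, with 11 in family 16, 9 each in families 6 and 7, 6 each in families 2 and 38, 3 each in families 1, 36 and 43, and 1 in family 3. The other two carry the ending os. Slc7a6os is a protein-coding neighbour of Slc7a6 that encodes no transporter, and Slc36a3os is an antisense gene that overlaps Slc36a3 on the opposite strand. Whether the counting used strand was not given in the sources used here, and whether reads of Slc36a3 and Slc36a3os were kept apart was not checked. The same holds for Slc2a1, Slc2a12, Slc7a7, Slc6a20b, Slc6a20a, Slc43a2 and Slc16a6, each of which overlaps another measured gene on the opposite strand. The counts of such pairs could differ widely. In all cells Slc36a3 had 56 UMIs and Slc36a3os 2017. Slc6a20a had 8, although Ccr9, which overlaps it, was at 1706 ± 78.7 CPM in subcluster 0.

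Solute carriers move small hydrophilic molecules across membranes that these molecules cannot cross alone. Family 2 holds the facilitative glucose transporters, and family 16 holds the monocarboxylate carriers, which move lactate and pyruvate together with protons and of which several need the chaperone basigin (Bsg) or embigin (Emb) to reach the surface. Slc3a2 encodes CD98, the heavy chain that pairs with light chains of family 7 to exchange large neutral, cationic or cystine-type amino acids, while families 1 and 38 bring in glutamine, alanine and serine. Activated lymphocytes and macrophages are known to raise glucose and glutamine uptake, and tumours are known for low glucose and high lactate.

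Single-cell transcriptomes were made from CD45-positive, JAML-positive cells with 10x Genomics 5′ chemistry. The sort came from B16F10 melanoma grown in mice given an isotype control, and 3 hashtag antibodies mark 3 animals, taken here as mouse 1, 2 and 3 because the design gives 3 tumours. All cells thus belong to 1 experimental group, and the comparisons are made among kinds of cell inside each mouse. The labels call the cells T cells and in another place TREG, whereas most clusters held dendritic, macrophage or natural killer markers, and Foxp3 is not analysed here.

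The count table held 5976 cells and 103155608 unique molecular identifiers (UMIs, each standing for 1 captured RNA molecule), with a median of 14439 UMIs per cell. Mouse 1 gave 2445 cells, mouse 2 gave 1184, mouse 3 gave 2339, and 8 cells that lacked a hashtag enter no value per mouse. No cell barcode occurred more than once. The authors' 16 subclusters were named from marker genes with the suffix -like: plasmacytoid dendritic (0 and 9), CD8 T (1, 7, 10 and 15), macrophage (2), natural killer with T-cell transcripts (3), type 2 conventional dendritic (4), exhausted CD8 (5), dividing exhausted CD8 (8), dividing CD8 (14), type 1 conventional dendritic (6), dividing dendritic (11) and mature migratory dendritic (12). Subcluster 13 lay in the Siglech cluster but held Cd209a at 776 CPM beside Siglech at 277 CPM, and it was left unnamed. The names of subclusters 8 and 14 do not mark a difference in exhaustion transcripts. Pdcd1, Havcr2, Lag3, Tox and Entpd1 summed to 437 to 863 CPM over mice in subcluster 8. In subcluster 14 they summed to 623 to 859 CPM, and in subcluster 5 to 1050 to 1138 CPM. The mice filled the classes unequally: mouse 3 gave 597 of 785 cells of subcluster 1 and 39 of the 446 hashtagged cells of subcluster 5, while mouse 1 gave 64 and 315. Median UMIs per cell ran from 8550 in subcluster 1 to 33473 in subcluster 11. Levels are CPM, a gene's UMIs in a class of 1 mouse scaled to a fixed total, as the mean ± SD over 3 mice (2 mice for subclusters 14 and 15, where the other mouse had under 10 cells).

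The transporters fell into groups by the class that held their highest level. Across the 16 subclusters, 28 members reached 10 CPM in at least 1 class and 25 did not. Macrophage-like subcluster 2 held the highest level of 8 of the 28: the glucose transporter Slc2a1, the lactate exporter Slc16a3, the aromatic amino acid carrier Slc16a10, the lysosomal amino acid exporter Slc36a1, the neutral amino acid carrier Slc43a2, and the CD98 partners Slc7a7, Slc7a8 and Slc7a11. Exhausted-like CD8 subcluster 5 held the highest level of 5: the glucose transporter Slc2a3, the glutamine transporter Slc1a5, the cationic amino acid transporter Slc7a1, and the monocarboxylate carriers Slc16a1 and Slc16a11. Plasmacytoid-like subclusters 0 and 9 together held the highest level of 8, among them CD98 itself (Slc3a2), the glutamine carrier Slc38a1 and the lysosomal arginine sensor Slc38a9. Many of these tops were shared with a neighbour. Slc3a2 stood at 294 ± 25.7 CPM in subcluster 9 and 277 ± 17.8 in subcluster 0, and their mice overlapped. By contrast, the 3 mice of the top class all lay above those of the next class for Slc7a8, at 51.0 ± 5.13 CPM in subcluster 2 and 10.1 ± 2.90 in subcluster 6. They also did so for the amino acid exchanger Slc7a5, at 111 ± 14.8 CPM in unnamed subcluster 13 and 42.3 ± 11.3 in subcluster 9. The least variable of the 28 were Slc3a2 and Slc38a10: Slc3a2 differed 2.03-fold between its highest and lowest subcluster, and Slc38a10 2.35-fold. Because the clusters were built from transcripts of these cells, this order is a description without a test.

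**Figure D1:**
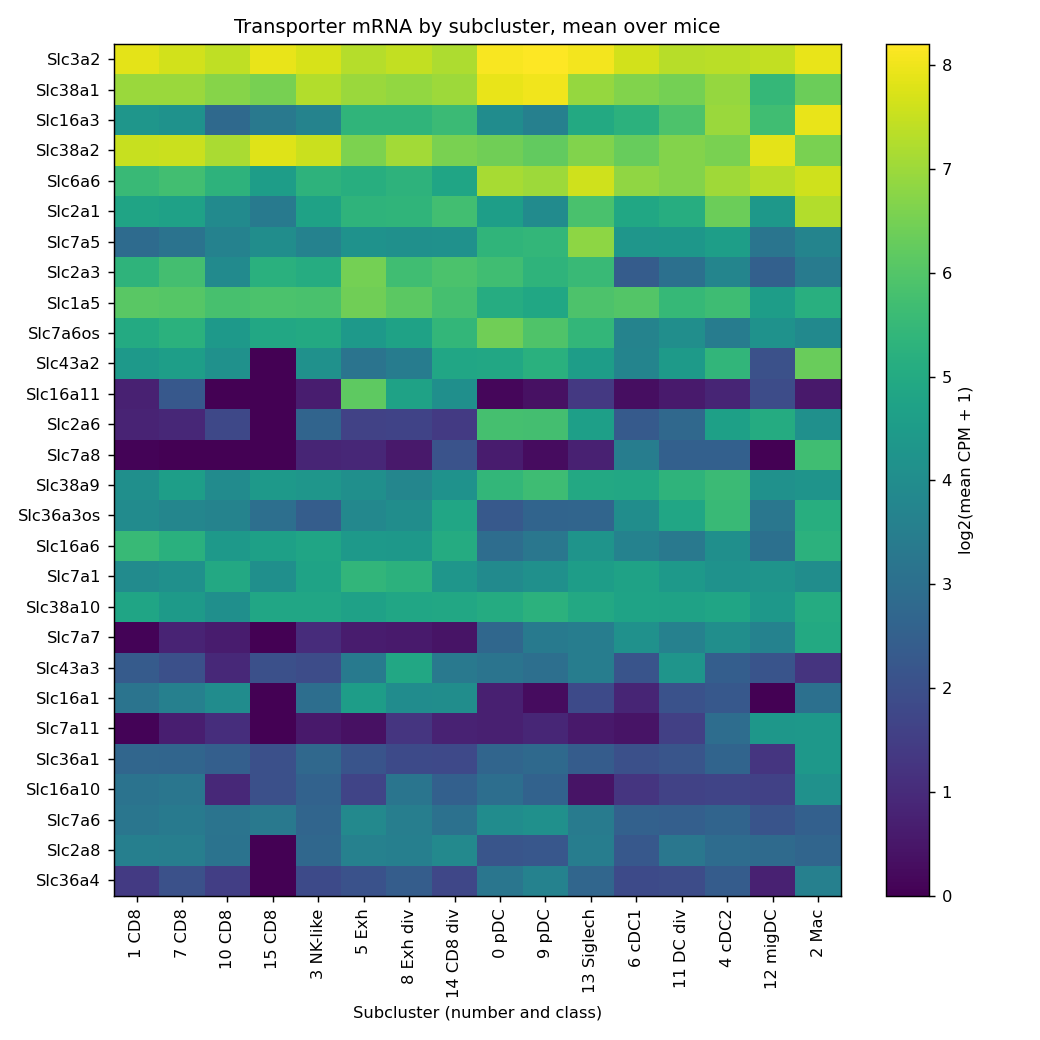
Levels of the 28 members that reached 10 CPM in some subcluster (rows) in each of the 16 subclusters (columns, grouped by class), as log2 of the mean CPM over mice plus 1. Slc16a11 is bright in subclusters 5, 8 and 14, Slc7a8 in subcluster 2, and Slc3a2 in every column.

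The glucose and lactate carriers illustrate how differently members of 1 family were distributed. For Slc2a1 the mice read 124, 161 and 176 CPM in macrophage-like subcluster 2, against 23.0, 25.9 and 21.0 CPM in plasmacytoid-like subcluster 0. For Slc2a3 they read 11.3, 7.72 and 9.89 CPM in subcluster 2 and 49.6, 49.2 and 51.8 in subcluster 0. The 2 glucose transporter genes thus had opposite orders in these classes in each mouse. A further family member, Slc2a6, whose product sits largely on internal membranes, was at 54.0 ± 2.01 CPM in subcluster 0 and 52.9 ± 10.5 in subcluster 9. In CD8-like subcluster 1 Slc2a6 had 4 UMIs in 785 cells.

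Promoters of 3 of these genes are shown because their transcripts were highest in different classes: Slc2a1 and Slc16a3 in subcluster 2, Slc16a11 in subcluster 5. The sequences are RefSeq, build GRCm38.p6, 250 bases before to 50 after the start, read 5′ to 3′ on the gene's strand, and 39 of the 53 members had an entry. Slc2a1 is at chr4:119108495-119108794, plus strand. Slc16a3 is at chr11:120948817-120949116, plus strand, and Slc16a11 at chr11:70213660-70213959, plus strand. Capitals mark ACGTG and GCGTG, the core letters bound by hypoxia-inducible factors, searched on both strands. A CACGTG hexamer holds ACGTG on both strands.
Slc2a1: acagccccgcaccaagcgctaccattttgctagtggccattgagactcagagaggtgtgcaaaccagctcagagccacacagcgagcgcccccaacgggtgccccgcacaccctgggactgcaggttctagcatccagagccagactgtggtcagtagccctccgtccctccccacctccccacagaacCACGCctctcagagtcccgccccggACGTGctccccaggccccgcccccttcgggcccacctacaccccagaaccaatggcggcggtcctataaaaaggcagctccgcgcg
Slc16a3: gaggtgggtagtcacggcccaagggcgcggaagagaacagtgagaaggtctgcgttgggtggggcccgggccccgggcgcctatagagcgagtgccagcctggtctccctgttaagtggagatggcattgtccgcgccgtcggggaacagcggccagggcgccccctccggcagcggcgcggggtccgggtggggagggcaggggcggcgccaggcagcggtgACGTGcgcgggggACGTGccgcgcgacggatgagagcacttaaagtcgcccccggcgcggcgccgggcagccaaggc
Slc16a11: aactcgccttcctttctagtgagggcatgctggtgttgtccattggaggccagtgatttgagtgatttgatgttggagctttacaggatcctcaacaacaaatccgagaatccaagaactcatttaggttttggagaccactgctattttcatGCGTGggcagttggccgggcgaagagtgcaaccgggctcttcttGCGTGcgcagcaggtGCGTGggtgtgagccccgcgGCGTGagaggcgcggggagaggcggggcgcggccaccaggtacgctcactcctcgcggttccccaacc
Slc2a1 had 1 match of each motif, Slc16a3 had 2 of ACGTG, and Slc16a11 had 4 of GCGTG. Either motif occurred in 43.77% of all 32851 promoters of this length and in 29 of the 54 start sites of members, so a match in these windows is common. ACGTG alone occurred in 19.62% and GCGTG alone in 32.39%.

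**Figure D2:**
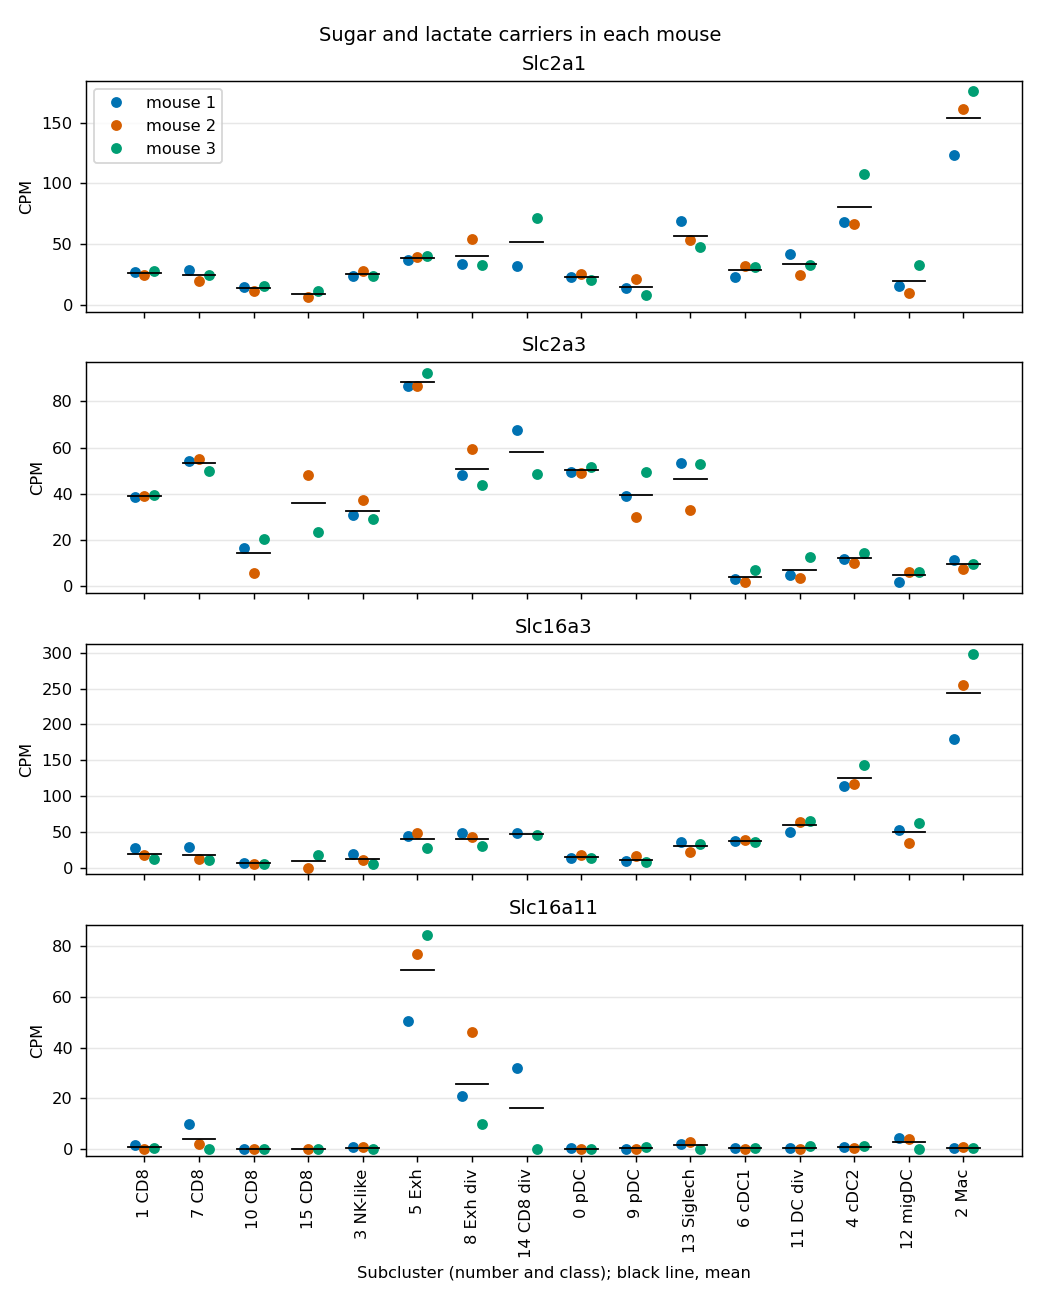
CPM of the glucose transporters Slc2a1 and Slc2a3 and the monocarboxylate carriers Slc16a3 and Slc16a11 in each subcluster, with 1 point per mouse and a black line at the mean. Slc2a1 and Slc16a3 peak in subcluster 2, Slc2a3 peaks in subcluster 5, and Slc16a11 has means of at most 3.83 CPM outside subclusters 5, 8 and 14.

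Exhausted-like CD8 subcluster 5 was compared with CD8-like subcluster 1, which answers how nutrient carriers differ between CD8 cells with and without high Pdcd1. The glucose transporter Slc2a3, the cationic amino acid transporter Slc7a1 and the monocarboxylate carriers Slc16a1, Slc16a3 and Slc16a11 were higher in subcluster 5. CD98, the amino acid carriers Slc38a2 and Slc43a2, the taurine transporter Slc6a6 and the monocarboxylate carrier Slc16a6 were lower in CPM. Except for Slc43a2, mean UMIs per cell of these lower genes went the other way, as given below. Counts were tested with edgeR's quasi-likelihood test with the mouse as a block and Benjamini-Hochberg adjustment over all genes. Of the 53 members, 33 passed the filter on low counts and 20 did not. Since a gene can pass through a single class in which it is high, counts of members describe those that passed and are not about all members. Among the 33, 10 were higher in subcluster 5 and 7 lower, or 51.5% called, and the background was 35.3% of 10951 genes (19.3% higher, 16% lower). The median log2 fold change was 0.31 over the 33 members and 0.0067 over all genes. These p-values rest on the spread between mice that the mouse block leaves, estimated from all 16 subclusters in 1 fit. They are too small as tests of the classes, because the clustering used the same transcripts. A fit of these 2 classes alone called 12 members, 7 higher and 5 lower. With each cell thinned to 7537 UMIs, 12 were called, 6 higher and 6 lower.

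Slc16a11, a proton-coupled monocarboxylate carrier, had the widest difference of the called members. It read 50.4, 77.0 and 84.3 CPM in subcluster 5 and 1.69, 0 and 0.378 CPM in subcluster 1 (mice 1, 2 and 3). Every mouse was high in the exhausted-like class, and subcluster 1 held 3 UMIs in all against 600. The ratio was 139, with a counting interval of 47.3 to 675, and the fitted log2 fold change was 6.89 ± 0.65 (SE, edgeR adjusted p = 3.6e-10). The gene was carried by many cells: 170 of 446 cells of subcluster 5 (38.1%) had a UMI, and the 3 cells richest in it held 10.3% of its UMIs. With each cell thinned to 7537 UMIs, the share was 24.8% (exact Clopper-Pearson 95% interval 20.9 to 29.1) in subcluster 5. It was 0.542% (0.112 to 1.58) in subcluster 1. Plasmacytoid-like subcluster 0, taken as a background class for this gene, had 0.217% thinned and 0.215% unthinned. The unthinned share in subcluster 1 was 0.382%, and median depths were 21106, 8550 and 13482 UMIs in subclusters 5, 1 and 0. Intervals cover counting error only. The neighbouring carrier gene Slc16a13, which lies beside Slc16a11 on chromosome 11 on the opposite strand without overlapping it, was at 5.90 ± 2.03 CPM in subcluster 5.

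Other carriers of sugar and monocarboxylates were also higher in subcluster 5. Slc2a3, the high-affinity glucose transporter, read 86.5, 86.5 and 92.4 CPM against 38.8, 39.2 and 39.5 CPM. The groups did not overlap and the mice were close together within each class (log2 1.22 ± 0.20, edgeR adjusted p = 4.6e-06). Slc16a3, the lactate exporter, read 44.1, 48.8 and 27.7 CPM against 27.0, 17.8 and 11.7 (log2 1.50 ± 0.30, edgeR adjusted p = 0.00013). The lowest mouse of subcluster 5 was just above the highest of subcluster 1. For Slc16a1, a bidirectional lactate carrier, the log2 fold change was 1.55 ± 0.29 (edgeR adjusted p = 6.3e-05). Slc2a1 was at 39.0 ± 1.89 CPM against 26.8 ± 1.72, without overlap, yet its call sat at the threshold (log2 0.60 ± 0.24, edgeR adjusted p = 0.049). The Slc2a1 call was lost with each mouse left out in turn (log2 0.51, 0.54 and 0.64, edgeR adjusted p = 0.20, 0.19 and 0.12 without mouse 1, 2 and 3), and with RLE scaling (adjusted p = 0.061), DESeq2 (adjusted p = 0.094), thinned cells (adjusted p = 0.13) and no mouse block (adjusted p = 0.096).

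Amino acid carriers went both ways between these classes. Slc7a1, which imports arginine and lysine, read 32.4, 33.8 and 56.6 CPM against 18.5, 12.5 and 12.3 CPM. All 3 mice were higher in subcluster 5 (log2 1.51 ± 0.22, edgeR adjusted p = 7.7e-07). Slc7a5, the CD98 partner that imports leucine and tryptophan, rose by log2 1.42 ± 0.30 (edgeR adjusted p = 0.00028), from 6.33 ± 1.12 to 17.3 ± 4.37 CPM. Its heavy chain Slc3a2 moved the other way, at 162, 152 and 148 CPM in subcluster 5 and 258, 215 and 231 in subcluster 1. These groups did not overlap (log2 -0.54 ± 0.11, edgeR adjusted p = 0.00016). Because cells of subcluster 5 held more UMIs, the number of Slc3a2 UMIs per cell was 3.56 ± 0.295 there and 2.13 ± 0.235 in subcluster 1, so the direction depends on whether the total is scaled. The glutamine transporter Slc1a5 was at 85.6 ± 9.14 CPM in subcluster 5 and 67.5 ± 12.1 in subcluster 1, with overlapping mice (log2 0.31 ± 0.16, edgeR adjusted p = 0.12).

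Members that fell in subcluster 5 included Slc38a2, a sodium-coupled carrier of alanine and glutamine, at 85.2, 86.0 and 111 CPM against 131, 193 and 221. The classes did not overlap (log2 -0.92 ± 0.15, edgeR adjusted p = 8.6e-06). Slc16a6 fell by 0.98 ± 0.23 on the log2 scale (edgeR adjusted p = 0.00063) and Slc43a2, an importer of branched-chain amino acids, by 1.24 ± 0.30 (edgeR adjusted p = 0.0011). The decrease of Slc6a6 was smaller (log2 -0.48 ± 0.13 with overlapping mice, edgeR adjusted p = 0.0048). Slc7a6os was at 20.1 ± 2.98 CPM against 31.4 ± 10.6 (edgeR adjusted p = 0.0083). These decreases are in CPM. In UMIs per cell Slc38a2 was at 2.17 ± 0.299 in subcluster 5 and 1.64 ± 0.381 in subcluster 1, Slc16a6 at 0.476 ± 0.0862 and 0.406 ± 0.0289, Slc6a6 at 0.797 ± 0.129 and 0.418 ± 0.0792, and Slc7a6os at 0.462 ± 0.0441 and 0.283 ± 0.0889. As for Slc3a2, the means of these 4 genes turn when the total is not scaled, and Slc43a2 was at 0.179 ± 0.0799 and 0.181 ± 0.00537. Left-out mice ended 3 of these calls: Slc43a2 without mouse 2 (log2 -0.95, adjusted p = 0.057), Slc6a6 without mouse 3 (log2 -0.28, adjusted p = 0.33) and Slc7a6os without mouse 2 (log2 -0.73, adjusted p = 0.069) or mouse 3 (log2 -0.46, adjusted p = 0.31). The other 4 called members, Slc43a3, Slc6a13, Slc36a4 and Slc16a10, had means under 10 CPM in both classes, and each lost its call without mouse 2 (adjusted p = 0.20, 0.079, 0.16 and 0.09 in that order). Without mouse 2 the number of called members was 10, and without mouse 3 it was 11, in place of 17.

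Enzymes that use these substrates were counted from fixed lists. Of 14 genes of sugar and lactate use, 9 were higher and 1 lower in subcluster 5, with a median log2 fold change of 0.59. Ldha, which makes lactate from pyruvate, was at 1073 ± 226 CPM against 514 ± 51.4 (log2 1.10 ± 0.14, edgeR adjusted p = 1.3e-07), and the gene that was lower was Txnip, an inhibitor of glucose uptake. Of 16 tested genes of amino acid use 7 were higher and 0 lower. The branched-chain aminotransferase Bcat1 was at 14.2 ± 3.41 CPM against 0.954 ± 1.49, and asparagine synthetase Asns at 19.1 ± 2.61 against 2.87 ± 2.09. The chaperones of the lactate carriers split. Bsg rose by log2 1.06 ± 0.11 (edgeR adjusted p = 1.3e-09), while Emb was at 52.6 ± 5.03 CPM in subcluster 5 and 426 ± 67.9 in subcluster 1 (log2 -2.91 ± 0.27, edgeR adjusted p = 1.8e-10).

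**Figure D3:**
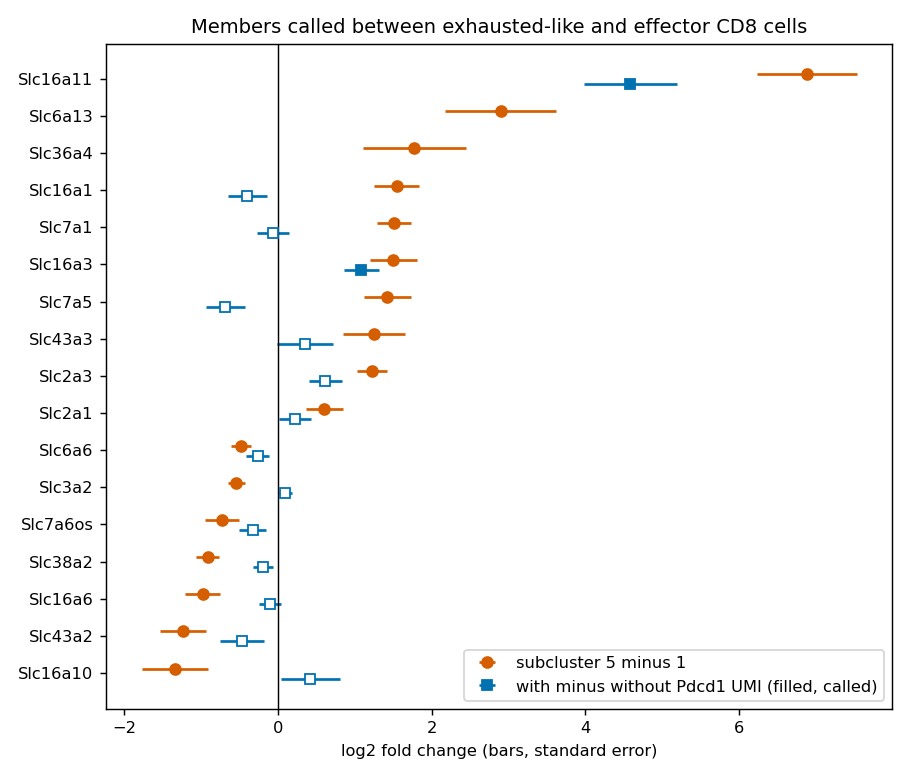
Fitted log2 fold changes (horizontal axis, bars are standard errors) of the 17 members called between subcluster 5 and subcluster 1, titled effector CD8 (orange circles), with the same members in CD8 cells with against without a Pdcd1 UMI where they were tested (blue squares, filled where called). Slc16a11 and Slc16a3 are the filled squares, and the squares of Slc7a5, Slc16a1, Slc7a1, Slc3a2 and Slc16a10, none of them called, lie on the other side of 0 from their circles.

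CD8 cells were also split by a single gene that is no transporter. Among the T-cell clusters, 2148 cells had UMIs of Cd8a or Cd8b1 and of a Cd3 chain and none of Cd4. Those with a Pdcd1 UMI were compared with those without, after matching on total UMIs within each mouse to 130, 107 and 402 cells a class. Of 22 members tested, 2 were higher and 0 lower, or 9.09%, and the background was 6.17% of 8529 genes (3.12% higher, 3.05% lower). Slc16a11 read 22.9, 52.1 and 12.4 CPM with a Pdcd1 UMI and 3.42, 0 and 0 without, with no overlap (log2 4.59 ± 0.61, edgeR adjusted p = 0.0024). Slc16a3 read 29.2, 30.5 and 17.7 CPM against 12, 9.10 and 10.3 (log2 1.09 ± 0.23, edgeR adjusted p = 0.022). Both carriers were thus higher in the Pdcd1 class of each mouse. In mouse 1, 70.8% of the cells with a Pdcd1 UMI and 12.3% of those without lay in the Pdcd1 cluster. The shares were 30.8% and 11.2% in mouse 2 and 16.9% and 8.46% in mouse 3, and the part of this makeup in the 2 differences was not tested. Without mouse 2 the Slc16a11 call was lost (log2 3.84, adjusted p = 0.055). Slc16a3 lost its call without mouse 1 (log2 1.01, adjusted p = 0.066) or mouse 2 (log2 0.92, adjusted p = 0.16), with DESeq2 (adjusted p = 0.23) and with no mouse block (adjusted p = 0.053).

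Members called between subclusters 5 and 1 did not all behave alike in this split. Slc2a3 was at 60.1 ± 12.1 CPM with and 34.6 ± 7.85 without a Pdcd1 UMI, without overlap between mice, and did not pass (log2 0.62 ± 0.21, edgeR adjusted p = 0.13). It passed without the matching (log2 0.82, adjusted p = 0.032), with the gate at 2 UMIs (log2 1.06, adjusted p = 0.025) and without mouse 3 (log2 1.08, adjusted p = 0.0024). Slc7a1 was at 22.9 ± 5.43 and 22.5 ± 5.77 CPM (log2 -0.06 ± 0.21, edgeR adjusted p = 0.91). Among the 13 tested genes of sugar and lactate use, 6 were higher and 0 lower with a Pdcd1 UMI, among them Pgk1, a glycolytic kinase (log2 0.56 ± 0.09, edgeR adjusted p = 0.0074). The comparisons were not tested against each other.

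A split of the same CD8 cells by a Jaml UMI, the gene of the sorted receptor, gave 1 called member of 26 tested (0 higher, 1 lower, 3.85%), where the background was 0.874% of 9492 genes (0.611% higher, 0.263% lower). After matching there were 206, 100 and 304 cells a class. Slc16a11 read 26.2, 28.6 and 5.74 CPM with a Jaml UMI and 45.7, 54.3 and 10.8 without. It was lower with a Jaml UMI in 3 of 3 mice, although the ranges over mice overlapped because mouse 3 was low in both classes (log2 -0.86 ± 0.14, edgeR adjusted p = 0.0071). The Pdcd1 cluster held 68.9%, 42.0% and 11.5% of the cells with a Jaml UMI and 75.7%, 41.0% and 12.5% of those without; its part in the difference was not tested. The call depended on the block and the gate. It was lost with no mouse block (log2 -0.88, adjusted p = 1.0), and with the gate at 2 Jaml UMIs (log2 -0.62, adjusted p = 0.051), and DESeq2 gave no adjusted p for it. It held with each mouse left out.

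Dividing cells were set against non-dividing cells in the CD8 and the dendritic lineage, though the classes differed in more than division. In CD8 cells, subcluster 8 was compared with subcluster 5, and its median depth was 27482 UMIs against 21009. Subcluster 8 also held more of some natural killer transcripts. Ncr1 was at 29.8 ± 10.9 CPM against 1.74 ± 2.65, and Klra7 at 27.7 ± 2.37 against 4.38 ± 2.37. Eomes was alike, at 39.2 ± 10.0 against 36.5 ± 14.2. The part of this content in the differences below was not tested. Called members were 3 higher and 2 lower of 33, or 15.2%, near the background of 14.5% of 10951 genes (9.77% higher, 4.75% lower). Slc43a3, a transporter of purine nucleobases, read 21.7, 35.3 and 30.6 CPM in dividing cells and 12.3, 12.8 and 2.31 CPM in subcluster 5. All dividing values were above all others (log2 1.38 ± 0.28, edgeR adjusted p = 0.0004). Slc2a3 read 48.1, 59.6 and 43.9 CPM against 86.5, 86.5 and 92.4, again without overlap but in the other direction (log2 -0.80 ± 0.18, edgeR adjusted p = 0.0009). Slc16a11 read 21.0, 46.1 and 9.70 CPM against 50.4, 77.0 and 84.3. It was lower in dividing cells of each mouse (log2 -1.49 ± 0.32, edgeR adjusted p = 0.00066), and DESeq2 did not call it (log2 -1.75, adjusted p = 0.075). The summed level of the 5 exhaustion markers fell alongside, from 1050 to 1138 CPM over mice in subcluster 5 to 437 to 863 CPM in subcluster 8, and its part in the Slc16a11 and Slc2a3 differences was not tested. Slc16a1 was at 14.7 ± 1.89 CPM against 22.8 ± 3.92 and did not pass (log2 -0.62 ± 0.24, edgeR adjusted p = 0.082). Slc38a2 was called (log2 0.46 ± 0.15, edgeR adjusted p = 0.032) but rose in only 2 of 3 mice, and without mouse 3 it read log2 0.21 (adjusted p = 0.57). The other call, Slc16a10 (log2 1.20 ± 0.40, edgeR adjusted p = 0.037), was lost without mouse 2 (log2 0.99, adjusted p = 0.23) or mouse 3 (log2 1.11, adjusted p = 0.12), and Slc38a2 also without mouse 2 (log2 0.48, adjusted p = 0.10). Without mouse 2 or without mouse 3 there were 3 called members. None of 14 genes of sugar and lactate use passed (edgeR, 0 higher and 0 lower).

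In the dendritic lineage, subcluster 11 was compared with type 1 conventional dendritic-like subcluster 6 (median depths 33473 and 26945 UMIs). Called members were 2 higher and 4 lower of 33, or 18.2%, against a background of 21.6% (9.79% higher, 11.8% lower). The split by direction was not stable: a fit of these 2 classes alone called 5 higher and 2 lower, and without mouse 1 there were 3 higher and 0 lower. Slc43a3 was again higher in dividing cells, at 21.6, 23.3 and 9.81 CPM against 3.78, 4.24 and 2.06, with no overlap (log2 2.36 ± 0.39, edgeR adjusted p = 9.2e-06). Slc3a2 read 138, 152 and 182 CPM against 206, 195 and 197 (log2 -0.49 ± 0.11, edgeR adjusted p = 0.001). Its UMIs per cell were 5.28 ± 1.05 in subcluster 11 and 5.40 ± 0.465 in subcluster 6, and were higher in dividing cells of 2 of 3 mice. Slc1a5 was at 43.9 ± 9.06 CPM against 63.0 ± 4.97 (log2 -0.69 ± 0.17, edgeR adjusted p = 0.002), and Slc43a2 at 21.3 ± 2.54 against 11.9 ± 2.73 (log2 0.79 ± 0.29, edgeR adjusted p = 0.041). Subcluster 11 was not pure. Of its 129 cells, the authors' Xcr1 cluster supplied 82 and their Ifitm1 cluster 44, and Cd209a, a type 2 marker, was at 188 ± 156 CPM there and 33.2 ± 29.9 in subcluster 6. With the cells of the Xcr1 cluster alone, an alternative chosen after seeing the data, Slc43a2 was no longer called (log2 0.17, adjusted p = 0.81) and neither was Slc7a8 (log2 -0.86, adjusted p = 0.22). In those cells Slc43a3 was higher by log2 1.51 (edgeR adjusted p = 0.027) and Slc3a2 lower by log2 -0.44 (adjusted p = 0.005). Without mouse 1, the calls of Slc3a2 (log2 -0.28, adjusted p = 0.33), Slc1a5 (log2 -0.34, adjusted p = 0.31) and Slc6a6 (log2 -0.09, adjusted p = 0.81) were lost, as was that of Slc7a8 (log2 -0.60, adjusted p = 0.58) and Slc43a2 (log2 0.61, adjusted p = 0.24), and 3 members were called. Without mouse 2, Slc43a2 (log2 0.95, adjusted p = 0.079), Slc6a6 (log2 -0.36, adjusted p = 0.12) and Slc7a8 (log2 -1.08, adjusted p = 0.23) were lost, and without mouse 3 Slc43a2 was (log2 0.89, adjusted p = 0.063).

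The 2 division contrasts were also subtracted from each other in the same fit, across all 10951 genes, of which 281 (2.57%) passed. Slc3a2 was the member that passed. Its change with division was log2 0.19 ± 0.11 in CD8 cells and -0.49 ± 0.11 in dendritic cells, and the difference was 0.68 ± 0.15 (edgeR adjusted p = 0.011). It no longer passed without mouse 1 (0.39, adjusted p = 0.53) or mouse 2 (0.66, adjusted p = 0.16). For Slc43a3 the changes were 1.38 and 2.36, and their difference of -0.98 ± 0.49 did not pass (edgeR adjusted p = 0.34).

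**Figure D4:**
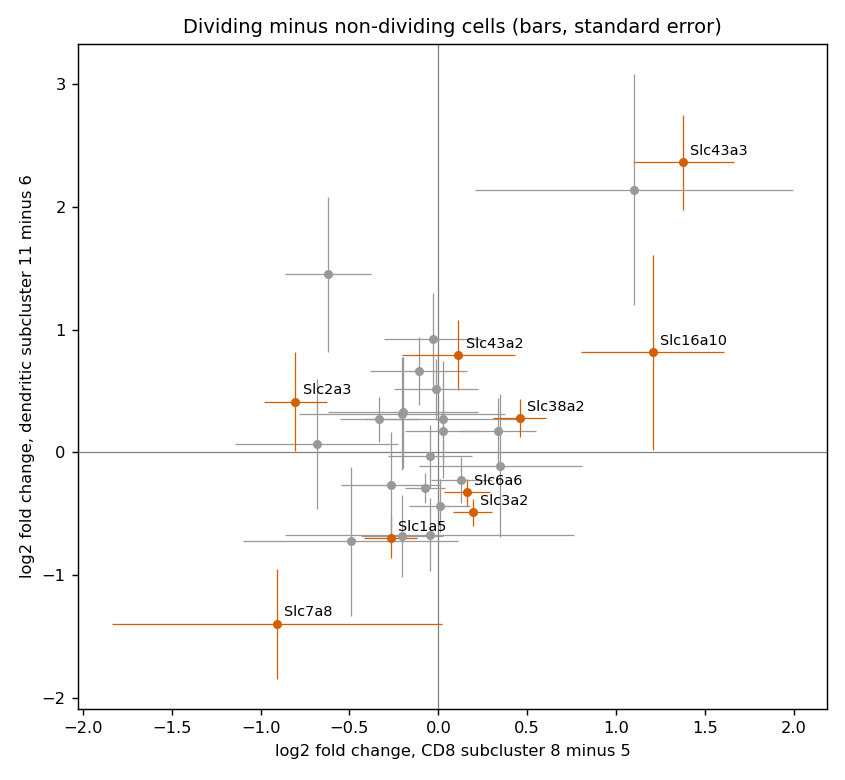
Log2 fold changes with division for 30 members, in CD8 cells (horizontal axis, subcluster 8 minus 5) and dendritic cells (vertical axis, subcluster 11 minus 6), with standard errors as bars; named orange points were called in at least 1 contrast, and members with an SE over 1 in either contrast, Slc16a11 among them, are not drawn. Slc43a3 lies far to the upper right, and Slc3a2 lies to the right of 0 and below it.

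Macrophage-like subcluster 2 was compared with type 2 conventional dendritic-like subcluster 4 (median depths 19798 and 24415.5 UMIs). The macrophage-like cells held more transcripts of the lactate exporter Slc16a3, of the glucose transporter Slc2a1 and of CD98 with its light chains Slc7a7, Slc7a8 and Slc7a11. The dendritic-like cells held more of the glutamine carriers Slc1a5 and Slc38a1 and the sensor Slc38a9. Called members were 17 higher and 6 lower of 33, or 69.7%, and the background was 29.7% of 10951 genes (15.8% higher, 13.9% lower). The median log2 fold change was 0.57 over the members tested and 0.01 over all genes.

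The light chains of CD98 did not all go one way. Slc7a8, which carries neutral amino acids, read 45.2, 52.8 and 55 CPM in subcluster 2 against 6.52, 3.29 and 4.46 (log2 3.34 ± 0.27, edgeR adjusted p = 7.7e-12). Slc7a7, which exchanges arginine and neutral amino acids, read 31.4, 32.1 and 27.9 CPM against 14.5, 12.8 and 19.0 (log2 1.01 ± 0.21, edgeR adjusted p = 0.00022). Neither gene overlapped between classes. Slc7a11, the cystine importer, read 8.15, 21.7 and 29.9 CPM against 5.36, 3.29 and 11, and its mice overlapped (log2 1.50 ± 0.31, edgeR adjusted p = 0.00019). Without mouse 2 the Slc7a11 call was lost (log2 1.10, adjusted p = 0.054). CD98 itself, Slc3a2, was at 245 ± 9.93 CPM against 164 ± 19.9 (log2 0.60 ± 0.10, edgeR adjusted p = 1.3e-05). The exception among the light chains named was Slc7a5, at 12.1 ± 4.55 CPM against 23.1 ± 5.98 (log2 -0.94 ± 0.21, edgeR adjusted p = 0.00047).

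Slc7a2, a cationic amino acid transporter that supplies arginine in macrophages, was at 0 in 12 of the 16 subclusters and highest in subcluster 2. It read 6.99, 14 and 8.62 CPM there, from 145 UMIs, against a single UMI in subcluster 4. The ratio was 127, with a counting interval of 22.4 to 5038 (log2 6.14 ± 0.68, edgeR adjusted p = 9.8e-07), and DESeq2 did not call it (log2 6.74, adjusted p = 0.59). A UMI was present in 77 of 715 cells (10.8%), or 6.18% after thinning (exact Clopper-Pearson 95% interval 4.51 to 8.23). In subcluster 4 the share was 0.191% unthinned. Arg1, the enzyme that splits arginine, was at 294 ± 174 CPM in subcluster 2 and 1.95 ± 0.822 in subcluster 4 (log2 6.67 ± 0.39, edgeR adjusted p = 7e-17).

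The lactate exporter and 1 glucose transporter were higher too. Slc16a3 read 180, 255 and 298 CPM in subcluster 2 and 114, 117 and 144 in subcluster 4. Slc2a1 read 124, 161 and 176 CPM against 68.1, 66.9 and 108. In both genes each macrophage-like value exceeded each dendritic-like value (log2 0.98 ± 0.19 for Slc16a3, edgeR adjusted p = 7.1e-05, and 0.94 ± 0.17 for Slc2a1, edgeR adjusted p = 3e-05). The other sugar transporters tested did not pass, with Slc2a3 at log2 -0.31 (edgeR adjusted p = 0.34) and Slc2a6 at log2 -0.48 (edgeR adjusted p = 0.10). Both chaperones were higher in the macrophage-like class, Bsg by log2 0.69 ± 0.10 (edgeR adjusted p = 5.6e-07) and Emb by log2 0.84 ± 0.23 (edgeR adjusted p = 0.0044). Of 14 genes of sugar and lactate use 11 were higher and 1, the phosphofructokinase Pfkp, was lower. Slc16a10 was at 16.8 ± 1.32 CPM against 2.22 ± 0.397, and Slc36a1 at 19.5 ± 2.78 against 5.30 ± 0.480 (log2 2.91 ± 0.36 and 1.89 ± 0.24, edgeR adjusted p = 1.6e-08 and 3.5e-08).

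Among the members that were lower, Slc38a9 read 19.0, 14.4 and 21.0 CPM against 51.7, 46.1 and 44.6. The sensor was lower in all 3 mice without overlap (log2 -1.39 ± 0.16, edgeR adjusted p = 3.6e-09). Of 11 tested genes of lysosomal amino acid sensing 6 were higher and 1 lower in subcluster 2. Slc1a5 was at 35.5 ± 3.95 CPM against 49.4 ± 6.79 (log2 -0.45 ± 0.15, edgeR adjusted p = 0.016), and without mouse 2 it was not called (log2 -0.32, adjusted p = 0.23). The call of Slc16a1 (log2 0.95 ± 0.31, edgeR adjusted p = 0.015) was lost with each mouse left out in turn (adjusted p = 0.11, 0.058 and 0.072). Among lesser members, Slc43a3 (log2 -1.24, adjusted p = 0.18) and Slc36a4 (log2 0.99, adjusted p = 0.052) were lost without mouse 2 and Slc38a6 (log2 1.24, adjusted p = 0.068) without mouse 1.

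**Figure D5:**
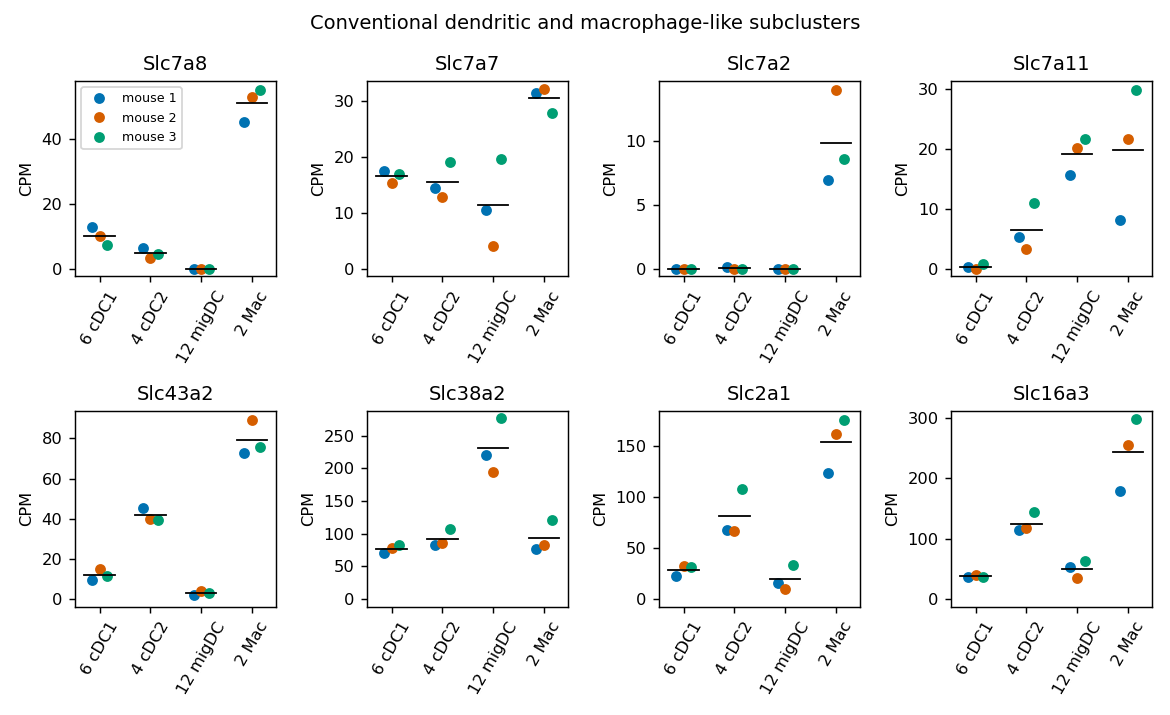
CPM of 8 members in the conventional dendritic-like, migratory dendritic-like and macrophage-like subclusters, with 1 point per mouse and a line at the mean; each panel has its own scale. Slc7a2 is seen in subcluster 2, Slc38a2 peaks in subcluster 12, and Slc43a2, Slc2a1 and Slc16a3 are lower in subcluster 12 than in subcluster 4.

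Mature migratory dendritic-like subcluster 12, defined by Ccr7 at 1697 ± 252 CPM, was compared with subcluster 4. Most transporters called were lower in the migratory class, including the glucose transporters Slc2a1 and Slc2a3 and the lactate carriers Slc16a3 and Slc16a1. The amino acid carrier Slc38a2 and the cystine importer Slc7a11 were higher. The sugar transporter Slc2a6 was also called higher, at the threshold and not in every mouse. Called members were 5 higher and 14 lower of 33, or 57.6%, and the background was 39.6% of 10951 genes (18.3% higher, 21.2% lower). The median log2 fold change was -0.95 over the members tested and -0.09 over all genes. Subcluster 12 held 125 cells, with a median depth of 18763 UMIs.

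Slc38a2 read 221, 194 and 277 CPM in subcluster 12 against 83.0, 85.9 and 107 CPM. Every migratory value was above every other (log2 1.48 ± 0.15, edgeR adjusted p = 1.3e-10). Slc7a11 read 15.6, 20.2 and 21.6 CPM against 5.36, 3.29 and 11, again without overlap (log2 1.64 ± 0.40, edgeR adjusted p = 0.00092). A Slc7a11 UMI was found in 26 of 125 cells of subcluster 12 (20.8%), and in 16.3% after thinning (exact Clopper-Pearson 95% interval 10.2 to 24.0). In subcluster 4 the share was 6.68% unthinned and 2.52% thinned (1.35 to 4.27), and in CD8-like subcluster 1, the background class, it was 0.127% unthinned and 0.181% thinned at a median depth of 8550 UMIs. The promoter of Slc7a11 (RefSeq, GRCm38.p6, chr3:50443564-50443863, minus strand) is shown because the gene was higher in this class and is a known target of the amino acid response factor ATF4.
Slc7a11: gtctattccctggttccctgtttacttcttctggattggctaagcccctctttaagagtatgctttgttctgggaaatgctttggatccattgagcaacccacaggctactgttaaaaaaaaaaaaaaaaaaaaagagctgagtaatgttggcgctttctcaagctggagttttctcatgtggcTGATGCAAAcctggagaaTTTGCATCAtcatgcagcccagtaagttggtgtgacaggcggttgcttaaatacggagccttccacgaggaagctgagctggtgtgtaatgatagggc
Capitals mark TGATGNAAN, the composite letters bound by ATF4 with a C/EBP partner, found 2 times on opposite strands of this window. The motif occurred in 3.954% of all promoters and in 4 of the 54 start sites of members. TGACNNNGC, the core bound by NRF2 (Nfe2l2), was searched on both strands, was not in this window and occurred in 12.39% of promoters. Atf4 transcripts were at 160 ± 29.6 CPM in subcluster 12 and 143 ± 30.4 in subcluster 4 (log2 0.31 ± 0.13, edgeR adjusted p = 0.046). Psat1 was lower, at 5.79 ± 3.77 CPM against 16.5 ± 2.72 (edgeR adjusted p = 0.012). Shmt2 was lower too, at 5.47 ± 3.09 against 11.8 ± 1.55 (edgeR adjusted p = 0.042). Among carriers, Slc7a5 and Slc1a5 were called lower and Slc38a2 higher. The part of ATF4 in any of these differences was not tested. Nfe2l2 was also lower (log2 -0.58 ± 0.21, edgeR adjusted p = 0.028).

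The carriers that were lower spanned several substrates. Slc43a2 read 2.09, 4.04 and 3.09 CPM in subcluster 12 and 45.5, 39.9 and 39.5 in subcluster 4 (log2 -3.68 ± 0.45, edgeR adjusted p = 9.5e-09). Slc2a1 read 15.6, 10.1 and 33.0 CPM against 68.1, 66.9 and 108 (log2 -1.77 ± 0.27, edgeR adjusted p = 9.8e-07). Slc38a1 read 30.2, 36.4 and 61.8 CPM against 121, 109 and 128 (log2 -1.32 ± 0.14, edgeR adjusted p = 6.6e-10). None of these 3 overlapped between classes. Slc16a3 fell by 1.10 ± 0.25 on the log2 scale (edgeR adjusted p = 0.00046), Slc1a5 by 1.15 ± 0.23 (edgeR adjusted p = 6.5e-05) and Slc38a9 by 1.27 ± 0.23 (edgeR adjusted p = 1.8e-05). Slc7a8 had 0 UMIs in subcluster 12 and 69 in subcluster 4, at least 4.29-fold lower against a floor of 3 counts over the class (edgeR adjusted p = 0.0027). Slc16a1 likewise had 0 against 44 UMIs, at least 2.74-fold lower (edgeR adjusted p = 0.0029).

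Some of these calls were less stable. With thinned cells 10 members were called, and Slc7a8 (adjusted p = 0.11), Slc16a1 (adjusted p = 0.20), Slc38a9 (log2 -0.89, adjusted p = 0.059), Slc2a3 (log2 -0.97, adjusted p = 0.31) and the increase of Slc6a6 (log2 0.31, adjusted p = 0.17) no longer passed. Slc2a3 was also lost without mouse 1 (log2 -0.86, adjusted p = 0.29), Slc16a1 (adjusted p = 0.068) and Slc7a5 (log2 -1.07, adjusted p = 0.082) without mouse 3, and Slc7a6os without mouse 1 (log2 0.63, adjusted p = 0.24) or mouse 2 (log2 0.91, adjusted p = 0.065). Slc16a6 (log2 -0.95 ± 0.39, edgeR adjusted p = 0.049) was lost under several alternatives, among them without mouse 3 (log2 -0.48, adjusted p = 0.48) and without mouse 2 (log2 -0.88, adjusted p = 0.16). The call of Slc2a6 (log2 0.67, adjusted p = 0.05) was lost without mouse 1 (log2 0.40, adjusted p = 0.41) or mouse 3 (log2 0.67, adjusted p = 0.15). It was also lost with no low-count filter (edgeR adjusted p = 0.074), no mouse block (0.091), thinned cells (0.13) and rebuilt clusters (0.08). Slc36a4, which had 2 UMIs in subcluster 12, lost its call with each of the 3 mice left out in turn (adjusted p = 0.053, 0.058 and 0.23). Of 14 genes of sugar and lactate use 1 was higher and 8 lower, with Hk2, a hexokinase, at 13.7 ± 2.57 CPM against 106 ± 15 (log2 -2.77 ± 0.26, edgeR adjusted p = 2e-11). Of 16 tested genes of amino acid use 6 were higher and 2 lower. Il4i1, an amino acid oxidase and one of the markers that name this class, was at 1382 ± 391 CPM against 18.0 ± 4.47.

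Plasmacytoid-like subcluster 0 was compared with type 1 conventional dendritic-like subcluster 6. Of 33 members tested 12 were higher and 8 lower, or 60.6%, close to the background of 54.9% of 10951 genes (28.4% higher, 26.5% lower). Median depths were 13482 and 26945 UMIs. Sugar transporters did not all go one way. Slc2a1 had 0.319 ± 0.0390 UMIs per cell in subcluster 0 and 0.773 ± 0.103 in the deeper cells of subcluster 6. Slc2a8 had 0.0478 ± 0.0132 and 0.104 ± 0.0303. The sugar transporters Slc2a6 and Slc2a3 were higher in subcluster 0. Slc2a6 read 55.7, 54.5 and 51.8 CPM against 3.31, 2.65 and 5.92, and Slc2a3 read 49.6, 49.2 and 51.8 CPM against 3.31, 2.12 and 7.20. The classes were far apart in every mouse (log2 3.47 ± 0.28 for Slc2a6, edgeR adjusted p = 6.5e-14, and 3.27 ± 0.24 for Slc2a3, edgeR adjusted p = 7.5e-15). Slc38a1 was at 243 ± 14.8 CPM against 99.3 ± 9.42 (log2 1.10 ± 0.11, edgeR adjusted p = 1.8e-11). The CD98 partners Slc7a6 and Slc7a5 were higher by log2 1.42 ± 0.28 (edgeR adjusted p = 4.2e-05) and 0.99 ± 0.20 (edgeR adjusted p = 5.4e-05). CD98 itself differed less in CPM (log2 0.29 ± 0.10, edgeR adjusted p = 0.018), and its UMIs per cell were fewer in subcluster 0, at 3.80 ± 0.320 against 5.40 ± 0.465. Without mouse 1 (log2 0.33, adjusted p = 0.079) or mouse 2 (log2 0.22, adjusted p = 0.18) Slc3a2 was not called. Slc43a3 was lost without mouse 2 (log2 1.17, adjusted p = 0.051) or mouse 3 (log2 0.74, adjusted p = 0.16).

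Slc7a8 and Slc7a7 were lower in the plasmacytoid-like class. Slc7a8 read 0.626, 0.529 and 0.447 CPM, from 7 UMIs, against 13, 10.1 and 7.20 (log2 -4.28 ± 0.49, edgeR adjusted p = 4.4e-09). Slc7a7 was at 5.61 ± 1.22 CPM against 16.6 ± 1.11 (log2 -1.69 ± 0.27, edgeR adjusted p = 8.9e-07). The glutamine transporter Slc1a5 and the lactate exporter Slc16a3 were also lower, by log2 -1.11 ± 0.15 (edgeR adjusted p = 4.3e-08) and -1.58 ± 0.26 (edgeR adjusted p = 1.5e-06). Of 14 genes of sugar and lactate use 2 were higher, Txnip and Ldhb, and 8 were lower. Slc7a6os, which lies beside Slc7a6, was at 84.3 ± 14.6 CPM in subcluster 0 and 11.8 ± 2.45 in subcluster 6 (log2 2.58 ± 0.20, edgeR adjusted p = 1.1e-14).

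The 25 members under 10 CPM in every class carried few molecules. Slc6a11 and Slc6a20a each had 8 UMIs in all cells. The glycine transporter Slc6a9 had 23, the creatine transporter Slc6a8 had 60, and the serine and alanine transporter Slc1a4 had 63.  Slc2a8 reached 13.4 ± 3.94 CPM (2 mice) in subcluster 14 and 11.3 ± 0.508 in subcluster 5, where the mice overlapped.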

How the data were processed

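RNA of CD45-positive, JAML-positive tumour leukocytes was measured with 10x Genomics 5′ chemistry, in 1 gene expression and 1 antibody-tag library. Per the submitters' processing notes, Cell Ranger 3.1.0, the mm10 genome and Seurat 3.1.5 were used. The deposited matrix holds UMI counts per gene and cell, without normalization. The authors' annotation gives each cell's UMI count, its percent of mitochondrial UMIs, hashtag and cluster numbers, and its species column reads Human although the gene symbols are mouse. The filters on cells, and doublet removal, were not given in the sources used here. The members, gene lists and classes were chosen with earlier results of these data known.

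Counts were summed per mouse and subcluster (at least 10 cells). One edgeR 4.0.16 quasi-likelihood fit in R 4.3.3 (TMM scaling, filterByExpr, mouse block) over all 16 subclusters gave the 6 subcluster comparisons, and separate fits gave the Pdcd1 and Jaml splits, whose cells were matched within deciles of total UMIs. Adjusted p is Benjamini-Hochberg over all genes, with a threshold of 0.05, and SE is the fold change divided by the root of its F statistic. Fold changes follow TMM scaling and can differ from ratios of CPM. The steps were tested on simulated counts of subclusters 5 and 1, with changes of log2 1 and log2 2 set in 100 genes each. They recovered 61% and 86% of these, with 7 false calls in 10951 genes run, so real differences can stay uncalled. In these 2 classes the simulated mice shared 1 mean per gene, and the spread followed the trend over genes. Since real genes have their own spread and mice differ, the false calls give no error rate for the real comparisons. The mouse is the block because the hashtag gives classes of the same animal. Same-mouse correlations of deviations from class means ran from -0.0745 to 0.314. With 3 mice of 1 sort, p-values measure only the spread between these mice that the mouse block leaves.

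Named genes were 24 fixed members, plus in each comparison up to 10 called members per direction, where each mouse had the same sign and the higher mean reached 10 CPM. Slc1a5, Slc16a1, Slc2a3 and Slc7a1 are also given where they were not called. Slc43a3 and others outside the rule were named after their values were seen. Alternatives were RLE factors, no low-count filter, DESeq2 1.42.0, a threshold of 0.01, a fit with no mouse block, leaving out each mouse, fits of the 2 classes alone, cells thinned to 7537 UMIs (598 shallower cells left out), clusters rebuilt without the members from 2000 variable genes and 30 principal components (4888 cells kept their subcluster), a gate at 2 UMIs, unmatched cells, another draw, and removal of 137 cells with UMIs of conflicting lineages, which ended no call of a member and raised the number called from 19 to 20 for subclusters 12 and 4 and from 20 to 21 for subclusters 0 and 6. Antibody-tag counts were not analysed here.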

Additional observations from a re-analysis of the deposited data

Results flagged for a closer look

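Slc3a2, the CD98 heavy chain, is listed because its change with division differed between lineages by a test of the difference itself. The log2 fold change of dividing against non-dividing cells was higher in CD8 than in dendritic cells by 0.68 ± 0.15 (edgeR adjusted p = 0.011). In CPM it was lower in dividing dendritic cells of 3 of 3 mice. In UMIs per cell it was at 4.14, 5.5 and 6.20 in subcluster 11 and 5.93, 5.18 and 5.08 in subcluster 6, higher in dividing cells of 2 of 3 mice. The difference was 0.39 (adjusted p = 0.53) without mouse 1, 0.66 (adjusted p = 0.16) without mouse 2 and 0.81 (adjusted p = 0.016) without mouse 3. It was 0.64 (adjusted p = 0.041) with dividing dendritic cells of the Xcr1 cluster only, an alternative chosen after seeing the data, and between 0.58 and 0.76 under the other 6 alternatives computed for it. The cause was not tested.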

How the results depend on the processing

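Of 93 called member results, 55 kept their call and direction under every alternative that gave a value for them, and none changed sign. A member with no value, as when too few UMIs were left to test it, was not counted as a lost call. With thinned cells, only Slc43a3 and Slc1a5 were tested and lost among those called for subclusters 2 and 4, though the number called fell from 23 to 15. Counts of called members moved by more than 1.5 times as follows. With thinned cells there were 3 in place of 5 for subclusters 8 and 5, 10 in place of 19 for subclusters 12 and 4, 15 in place of 23 for subclusters 2 and 4, and 2 in place of 6 for subclusters 11 and 6. At a threshold of 0.01 there were 3 for subclusters 8 and 5, 3 for subclusters 11 and 6, and 1 for the Pdcd1 split, and a fit of subclusters 8 and 5 alone gave 3. The Pdcd1 split gave 5 without matching, 4 with the gate at 2 UMIs and 1 with DESeq2. The Jaml split gave 0 with the gate at 2 UMIs and 0 with DESeq2, which gave Slc16a11 no adjusted p (edgeR gave 3 members at an unadjusted p under 0.05). With no replicate block the Pdcd1 split gave 1 and the Jaml split 0, and counts of the other comparisons were 16, 4, 18, 22, 20 and 5, in place of 17, 5, 19, 23, 20 and 6. Leaving out 1 mouse gave 10 to 15 members for subclusters 5 and 1, 3 to 6 for 8 and 5, 3 to 7 for 11 and 6, and 0 to 3 for the Pdcd1 split. Uncalled Slc7a1 in the Pdcd1 split turned from -0.06 to 0.44 unmatched, 0.11 with the gate at 2 UMIs and ran from -0.23 to 0.13 with 1 mouse left out. The cause of these moves was not tested. Thinning and left-out mice leave fewer UMIs, and fold changes moved in some of these fits as well. RLE in place of TMM scaling shifted the median of all genes by under 0.1 (log2). Depth limited members under 10 CPM.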
